A study of Drosophila melanogaster with 6 samples.

Results

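The exon junction complex (EJC) genes were followed in the RNA-seq libraries of S2R+ cells depleted of Hakai. The 6 genes mago, tsu, eIF4A3, btz, Acn and RnpS1 were taken by FlyBase symbol from the 17559 gene identifiers of the count files, and all 6 were found. The gene eIF4A3 is listed as CG7483 (FBgn0037573) in the annotation and was matched through that synonym. S2R+ is a cultured Drosophila line of embryonic origin with features of hemocytes, the blood cells of the fly. In the 3 Hakai knockdown (KD) libraries the cells received dsRNA against Hakai, a RING-finger protein of the complex that writes N6-methyladenosine (m6A) on mRNA. The 3 control KD libraries received dsRNA against the bacterial lacZ gene, and the sample labels give no further treatment or genetic change for either group. In the paper's methods, dsRNA was added to cells in serum-free medium, and medium with serum followed after 6 h. By the sample labels, 10 μg of dsRNA was given 3 times over 6 days. The paper's methods give a smaller figure, stated per number of cells, so the amounts may not be directly comparable. Poly(A) RNA was sequenced, and all libraries come from this cell line.

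The EJC is deposited on mRNA by the spliceosome, just upstream of the junctions of joined exons, and marks the spliced mRNA for export, localization, translation and decay. Its core is the DEAD-box protein eIF4A3, clamped on RNA by the heterodimer of Mago and Tsu (named Y14 in vertebrates) and bound by Btz (named MLN51 or CASC3 in vertebrates). Acn and RnpS1 belong to the ASAP complex, which joins the core and takes part in splicing. In the Drosophila oocyte, the core proteins are required to bring oskar mRNA to the posterior pole. In human cells, EJCs near exon junctions have been described as keeping m6A off the nearby RNA. The comparison of Hakai KD with control KD shows whether the mRNA of the EJC genes differed when a subunit of the m6A writer was depleted.

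The libraries held between 16041353 and 17288912 counts, and 7811 genes passed the filter on low counts and were tested. Counts were normalized to the library size scaled by TMM factors, and single libraries are given in the order of replicates 1, 2 and 3. The control KD libraries held 296, 329 and 298 normalized counts of Hakai mRNA and the Hakai KD libraries 68.1, 72.6 and 77.8, a log2 fold change of -2.08 with an edgeR quasi-likelihood adjusted p = 1.8e-07. The 5 tested markers listed for this cell line were srp, crq, Pxn, fz and Hml. Of these, 3 were called higher upon Hakai KD (Pxn, fz and Hml), against 7.58% of all genes tested. The summed level of the markers, with NimC1 added, in reads per kilobase of exon scaled for library size (RPKM), was 229 to 232 under control KD and 228 to 234 under Hakai KD. Most of this sum came from crq (149 RPKM over all libraries) and srp (41.8), which were not called, and less from Pxn (30.01), fz (8.76) and Hml (1.22). NimC1 had only 2 to 6 reads in a library and did not pass the filter on low counts. Markers of neurons, muscle, germline and fat body (elav, Mhc, nos and Lsp2) summed to between 1.9 and 2.74 RPKM in any library, nearly all of it from elav, and Lsp2 had at most 2 reads in a library. In these bulk libraries, more cells of a kind and more RNA per cell cannot be told apart, and the part of the marker changes in the results was not tested. Control KD replicate 1 stood apart from the other controls, with a chi-square over genes of 11.4 and 14.7 per degree of freedom against them, whereas these gave 2.25 against each other.

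Among the 6 EJC genes, RnpS1 was called higher upon Hakai KD and none was called lower. The other 5, which include the whole core, had log2 fold changes between -0.072 and -0.027 and did not pass the test. With an unadjusted p-value under 0.05, RnpS1 was again the 1 gene of 6, where 29.8% of all genes tested had one. The share of all tested genes called was 15.3% in either direction, 7.58% higher and 7.72% lower, by edgeR's quasi-likelihood test with a Benjamini-Hochberg threshold of 0.05. A count of 1 of 6 is thus near the share of all genes. The median log2 fold change of the 6 genes was -0.037, against 0.00059 over all genes tested.

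RnpS1, an RNA-binding protein with an SR-like region that acts in splicing and is part of ASAP, was counted 968, 1093 and 1005 times in the control KD libraries, after normalization. The Hakai KD libraries held 1137, 1222 and 1283 normalized counts. Every Hakai KD library lay above every control library, and the nearest values were 1093 in control KD replicate 2 and 1137 in Hakai KD replicate 1. Over all genes tested, the groups did not overlap in 34.9%. The mean rose from 1022 ± 64.2 (SD, n = 3) to 1214 ± 73.4 (SD, n = 3), which is 1.19-fold, with a 95% interval from 1.09 to 1.29. The log2 fold change was 0.25 (standard error 0.055, edgeR quasi-likelihood adjusted p = 0.012 over all genes). The two-sided exact permutation test over the 6 libraries gave p = 0.1, the smallest that 3 against 3 allow. The median log2 fold change of the 592 genes called higher was 0.20, and 197 of them, or 33.3%, rose more than RnpS1. With each library left out in turn, its log2 fold change stayed between 0.20 and 0.30 and its adjusted p between 0.011 and 0.048 in the same edgeR test, with the highest p without Hakai KD replicate 2. Without control KD replicate 1 it was 0.21 (edgeR adjusted p = 0.039). Exons of CG9386 on the other strand cover 52 bp, or 3.8%, of the RnpS1 exons. CG9386 had a mean of 281 ± 35.3 (SD, n = 3) under control KD and of 320.5 ± 17.4 (SD, n = 3) under Hakai KD. Its log2 fold change of 0.186 had the same direction as that of RnpS1 and was not called (edgeR adjusted p = 0.19). The difference of the group means was 39.5 normalized counts for CG9386 and 192 for RnpS1. The part of reads from this overlap in the rise of RnpS1 was not tested.

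**Figure D1:**
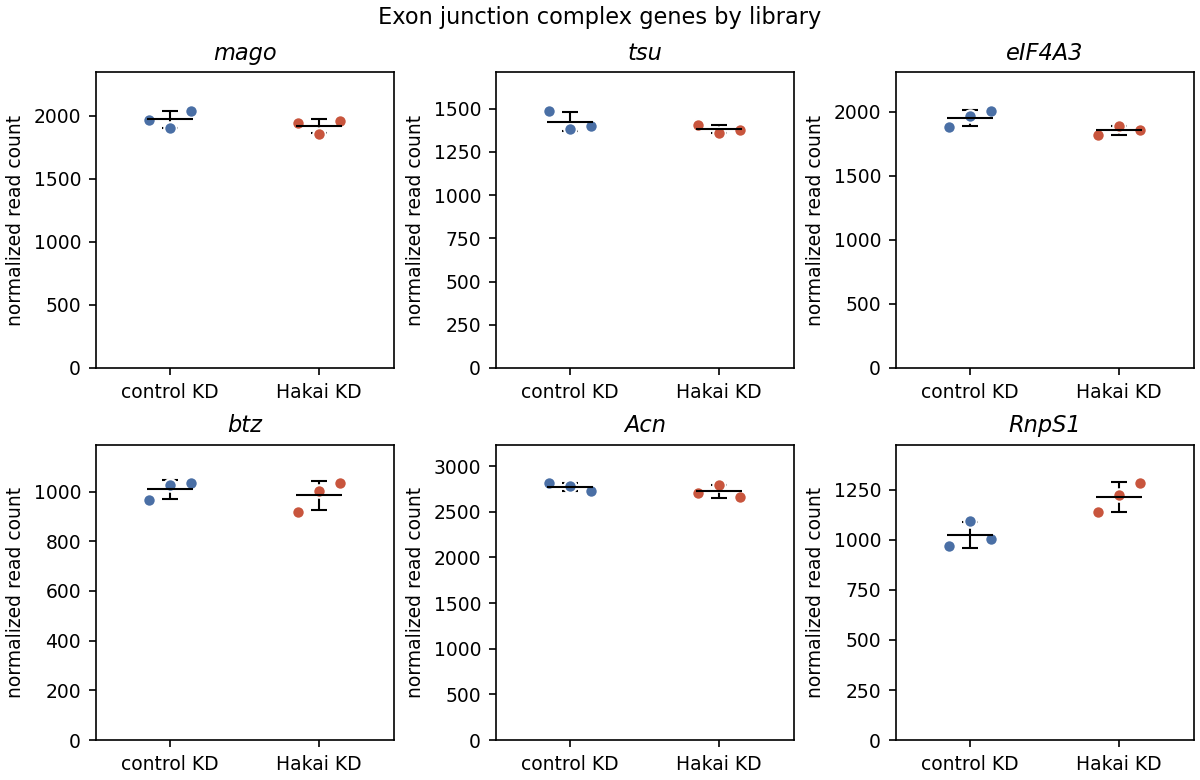
Normalized read counts (y axis, from 0) of the 6 EJC genes in the 3 control KD (blue) and 3 Hakai KD (red) libraries, each point 1 library, with the group mean and SD as black bars. The RnpS1 counts of Hakai KD, from 1137 to 1283, all lie above those of control KD, from 968 to 1093, and the groups overlap for the other 5 genes.

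The core genes were then examined in turn. The transcript of mago, whose protein forms the heterodimer with Tsu, had normalized counts of 1969, 1907 and 2040 under control KD and of 1943, 1856 and 1963 under Hakai KD. The groups overlapped, with the lowest value in Hakai KD replicate 2 and the highest in control KD replicate 3. The log2 fold change was -0.038 (standard error 0.038, edgeR quasi-likelihood adjusted p = 0.54), and the 95% interval of the fold ran from 0.919 to 1.03. Its partner tsu had normalized counts of 1488, 1384 and 1403 under control KD and of 1407, 1361 and 1378 under Hakai KD. Control KD replicate 1 alone lay above all Hakai KD libraries. The log2 fold change of tsu was -0.044 (edgeR adjusted p = 0.49), with a 95% interval of the fold from 0.914 to 1.03. Leaving out control KD replicate 1 moved the log2 fold change of tsu to -0.012 (edgeR adjusted p = 0.88).

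The RNA helicase of the core, eIF4A3, had normalized counts of 1883, 1964 and 2007 under control KD and of 1820, 1892 and 1857 under Hakai KD. The groups met at control KD replicate 1, which lay below Hakai KD replicate 2. The means were 1952 ± 62.9 (SD, n = 3) and 1856 ± 36.3 (SD, n = 3). Its log2 fold change of -0.072 (standard error 0.036) was farthest below 0 among the EJC genes and did not pass the test (unadjusted p = 0.073, edgeR adjusted p = 0.21). The 95% interval of the fold was 0.900 to 1.01. The last core gene, btz, which has the lowest level per length, had normalized counts of 966, 1028 and 1034 under control KD and of 919, 1002 and 1034 under Hakai KD. The groups of btz overlapped, with like highest values and the lowest value in Hakai KD replicate 1. The log2 fold change of btz of -0.035 (edgeR adjusted p = 0.69) turned to 0.012 without Hakai KD replicate 1. The 95% intervals of the fold of the 4 core genes together spanned 0.900 to 1.05. Acn, a subunit of ASAP, is in Drosophila also known as a regulator of endosomal and autophagic traffic. Acn had normalized counts of 2815, 2785 and 2728 under control KD and of 2710, 2797 and 2662 under Hakai KD. The groups overlapped in Hakai KD replicate 2, and the log2 fold change was -0.027 (edgeR adjusted p = 0.60), with a 95% interval of the fold from 0.936 to 1.03. All 4 core genes and Acn had a negative value, as did 3891 of the 7811 genes tested. None of the 5 passed the test in any alternative.

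**Figure D2:**
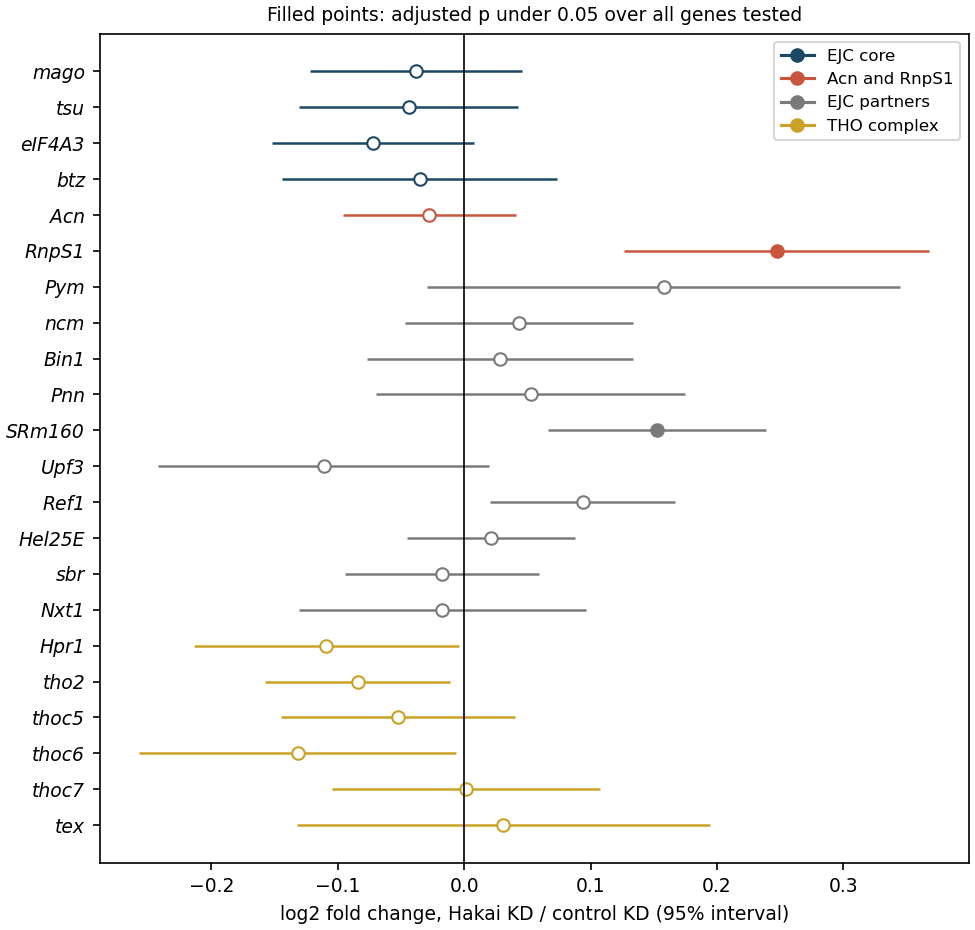
Log2 fold change of Hakai KD over control KD (x axis, points) with 95% intervals (lines) for the EJC core, Acn and RnpS1, EJC partners and the THO complex, filled where the adjusted p-value over all genes was under 0.05. RnpS1 at 0.25 and SRm160 at 0.15 are filled, and the core genes lie between -0.072 and -0.035 with intervals that include 0.

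Levels were next compared between the genes as RPKM, since the longer transcripts collect more reads. The order was tsu, mago, eIF4A3, Acn, RnpS1 and btz, with means over the 6 libraries of 122, 106, 77.0, 52.2, 48.9 and 19.4. The heterodimer partners thus had the highest levels. Tsu lay above mago in all 6 libraries, mago above eIF4A3 and eIF4A3 above Acn in all 6, and RnpS1 above btz in all 6. Acn and RnpS1 were the neighbours whose ranges overlapped, with Acn higher in 4 of 6 libraries, namely all 3 of control KD and 1 of Hakai KD. In control KD, Acn had 52.7 ± 0.84 (SD, n = 3) and RnpS1 44.7 ± 2.81 (SD, n = 3) RPKM, and in Hakai KD the values were 51.8 ± 1.3 (SD, n = 3) and 53.1 ± 3.21 (SD, n = 3). Among all genes tested, tsu stood at the 92nd percentile of level per length, mago at 90.5, eIF4A3 at 85.8, Acn at 77.8, RnpS1 at 76.2 and btz at 48.2. The order was the same when the longest transcript replaced the union of exons as length.

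**Figure D3:**
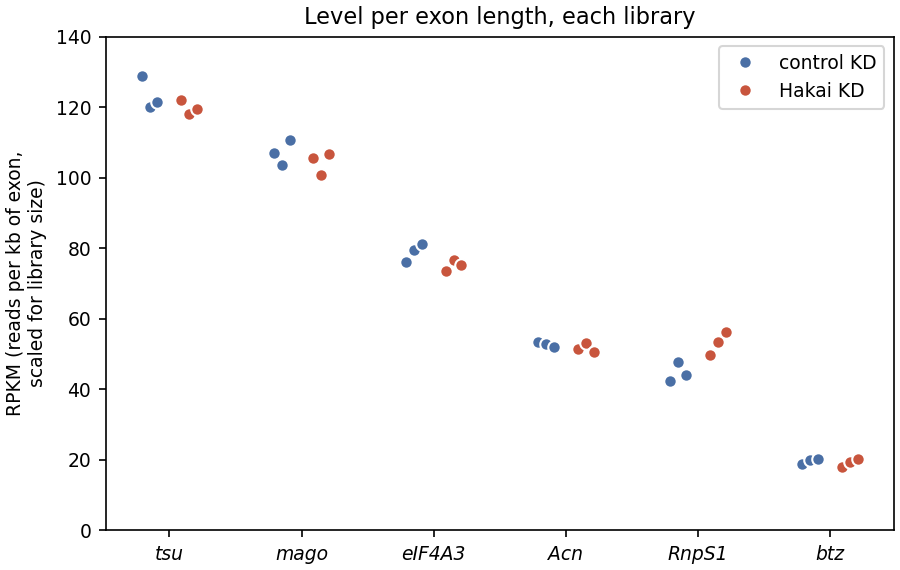
RPKM (y axis, from 0) of each EJC gene, ordered by mean level, with 1 point per library for control KD (blue) and Hakai KD (red). Tsu and mago lie at 100.8 or above in every library and btz at 20.1 or below, while Acn (50.6 to 53.5) and RnpS1 (42.3 to 56.1) overlap.

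The balance of the genes within a library was set out as ratios of these levels per length. The ratio of mago to tsu was 0.829, 0.863 and 0.911 under control KD and 0.865, 0.854 and 0.892 in Hakai KD, with means of 0.868 ± 0.041 (SD, n = 3) and 0.870 ± 0.020 (SD, n = 3). The ratio of btz to eIF4A3 was 0.248 ± 0.0026 (SD, n = 3) and 0.255 ± 0.012 (SD, n = 3). The groups overlapped in both ratios. Within the sum of the 4 core levels, tsu made up 37.5% ± 1.3 (SD, n = 3) under control KD and 37.6% ± 0.54 (SD, n = 3) under Hakai KD, and btz 5.96% ± 0.26 (SD, n = 3) and 6.01% ± 0.36 (SD, n = 3). The ratio of RnpS1 to Acn was 0.792, 0.903 and 0.848 under control KD and 0.965, 1.01 and 1.11 in Hakai KD. Here the groups did not overlap, which follows from the values of RnpS1 given above. Across the 6 libraries, the Pearson correlation of log2 CPM, as a description of points that share a library and its scaling, ran over the 6 core pairs from -0.45 (tsu and btz) to 0.70 (eIF4A3 and btz), with 0.45 between mago and tsu. RnpS1 had values from -0.78 (tsu) to 0.15 (btz) with the other EJC genes.

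Genes with the most similar pattern over the 6 libraries were taken by the highest Pearson r of log2 CPM among the genes tested. They were CG7115 for mago (r = 0.996), Trp1 for tsu (r = 0.993), asRNA:CR45501 for eIF4A3 (r = 0.993), CG42749 for btz (r = 0.989), Usp20-33 for Acn (r = 0.975) and Adk3 for RnpS1 (r = 0.996). Their log2 fold changes were -0.062, -0.023, -0.857, -0.118, -0.056 and 0.278 in this order. A high r thus did not mean a change of like size, as eIF4A3 itself had -0.072. For the mean of the 4 standardised core genes, CG13390, Ndc80 and eIF2Bgamma came first (r = 0.989, 0.988 and 0.987). With 6 libraries, between 8 and 75 genes exceeded 0.95 for each EJC gene, so that these names describe the top of a crowded order.

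The gene structures were compared with those of all tested genes. By the Ensembl release 115 annotation of BDGP6.54, mago (2R, 21128577 to 21129737) and tsu (2R, 9110799 to 9111578) have 1 intron each, eIF4A3 (3R, 8313208 to 8314864) has 3, RnpS1 (3R, 9552034 to 9553747) has 2, Acn (2L, 19045355 to 19048817) has 4 or 5 by transcript and btz (3R, 27700361 to 27703445) between 0 and 2. The part of each gene outside all annotated exons was between 0 and 344 bp, and 48.2% of the 7640 tested genes with a gene model had at most 344 bp. All 6 lie on the plus strand, as did 49.5% of those genes. In 5 of the 6, exons overlap those of a gene on the other strand, which held for 37.7% of the tested genes. The overlap covers 24.9% of the mago exons (Magi), 10.7% of tsu (Mys45A), 5.47% of eIF4A3 (Coq2) and 2.17% of btz (CROT), and Acn has none. Of these neighbours, Mys45A was called higher upon Hakai KD, with a log2 fold change of 0.14 (edgeR quasi-likelihood adjusted p = 0.046), and Magi, Coq2 and CROT were not called. The library kit marks the strand, but the strand setting of the counting is not given in the sources used here, so that reads of these overlaps may be shared, and their part in the values was not tested.

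The proteins that meet the EJC were examined as a list of 10 partners, of which 1 was called higher and none lower, against 7.58% and 7.72% of all genes tested, so that the count is near that share. The median log2 fold change of the partners was 0.036, between -0.11 and 0.16. SRm160 (Srrm1 in the annotation), a splicing coactivator rich in serine and arginine, had normalized counts of 1321, 1351 and 1261 under control KD and of 1430, 1449 and 1495 under Hakai KD. The groups did not overlap, which held for 2 of the 10 partners, against 34.9% of all genes tested. The log2 fold change of SRm160 was 0.15 (standard error 0.039, edgeR quasi-likelihood adjusted p = 0.023). The call of SRm160 was lost with DESeq2 (adjusted p = 0.076), with library size alone (0.074) and without control KD replicate 3, Hakai KD replicate 2 or Hakai KD replicate 3 (0.078, 0.063 and 0.065). The proteins that share complexes with RnpS1 were Bin1 (SAP18 in mammals, the further ASAP subunit), with a log2 fold change of 0.028, and Pnn (pinin), with 0.053, and neither was called. The factors that load and remove the core were not called either, with 0.043 for ncm (CWC22 in human, which brings eIF4A3 to the spliceosome) and 0.16 for Pym, which takes the EJC apart and had only 198 ± 14.5 (SD, n = 3) normalized counts in control KD. Upf3, the link from the EJC to nonsense-mediated decay in mammals, had -0.11 with an edgeR adjusted p = 0.24.

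The export factors among the partners were not called. Ref1 (Aly), the adaptor that joins mRNA to the export receptor, had normalized counts of 2565, 2557 and 2639 under control KD and of 2696, 2862 and 2721 under Hakai KD. Its groups did not overlap, which held for 34.9% of all genes tested, and the log2 fold change of 0.094 had an edgeR quasi-likelihood adjusted p = 0.082. The helicase Hel25E (UAP56) had 0.022, the export receptor sbr (NXF1) -0.018 and its partner Nxt1 -0.017. The 6 genes of the THO complex, which forms TREX with Hel25E and Ref1, gave 0 calls in either direction, against 15.3% of all genes tested, and had a median log2 fold change of -0.069. Unadjusted p-values under 0.05 were found for 3 of the 6, Hpr1 (-0.11), tho2 (-0.084) and thoc6 (-0.13), against 29.8% of all genes tested. With DESeq2 the THO complex and the partners together gave 0 calls in either direction as well. The translation factor eIF4A, a DEAD-box relative of eIF4A3, was not called (log2 fold change 0.11, edgeR adjusted p = 0.065). It passed the test with DESeq2 (adjusted p = 0.031), limma-voom (0.044), no filter on low counts (0.040) and without Hakai KD replicate 1 (0.019).

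Genes whose transcripts are known to need the EJC for correct splicing in Drosophila were compared last. The transcript of rl, the MAP kinase gene with long introns in heterochromatin, had 1750 ± 41.5 (SD, n = 3) normalized counts under control KD and 1753 ± 68.2 (SD, n = 3) under Hakai KD. The transcript of lt, another heterochromatic gene, had 4004 ± 108 (SD, n = 3) and 4071 ± 93.9 (SD, n = 3), and the 95% intervals of the fold were 0.944 to 1.06 for rl and 0.968 to 1.07 for lt. The piRNA gene piwi had between 11 and 21 reads in a library, so that its interval of 0.541 to 1.39 allows large changes. None of the 3 was called, and gene counts carry no information on the use of single splice sites.

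**Figure D4:**
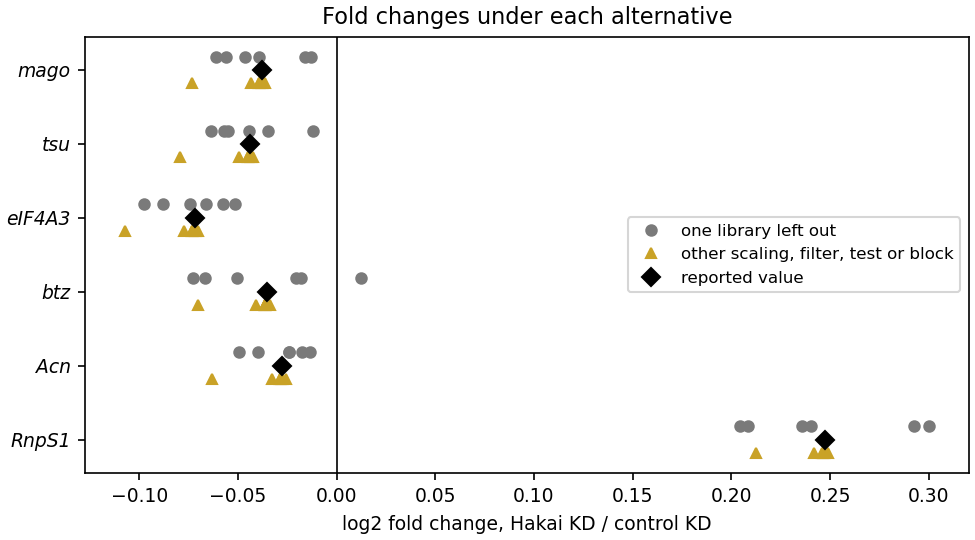
Log2 fold change of the 6 EJC genes (x axis) as reported (diamonds), with 1 library left out (circles) and with another scaling, filter, test or the replicate block (triangles). RnpS1 stays between 0.20 and 0.30 throughout, and btz crosses 0 once, at 0.012.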

How the data were processed

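The authors mapped single reads with STAR (2.5.1b in the submitters' processing notes) to Ensembl's BDGP6 genome, counted them per gene with featureCounts (1.5.1) and deposited raw counts per library, without normalization or pooling. The settings for strand and for reads with several places are not given in the sources used here. Of 17559 identifiers, 17253 had a gene in Ensembl release 115 (BDGP6.54), a later annotation of the same assembly, used for names, positions and exon lengths. Hakai KD was compared with control KD in R 4.3.3 with edgeR 4.0.16: filterByExpr (minimum count 10, total 15), TMM factors (0.984 to 1.03), quasi-likelihood test without covariates, Benjamini-Hochberg adjustment over 7811 genes. Normalized counts are counts divided by effective library size, times its mean. Standard errors are the absolute log2 fold change over the square root of F. They are approximate, and the 95% intervals rest on them. Alternatives used DESeq2 1.42.0 (the study's tool), limma 3.58.1, other scalings, filters, the replicate block and 1 library left out. The members and lists were chosen with earlier results of these data known. Named genes were the members, the listed genes, Hakai and the most similar genes. The genes overlapping members were added after values were seen. The marker vas was not analysed here. Between replicates, the chi-square over genes was 2.25 to 14.7 per degree of freedom, so that none was a copy. The study describes the replicates as biological. The labels do not say whether they were separate cultures, and p-values measure only the spread between these libraries.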

Additional observations from a re-analysis of the deposited data

How the results depend on the processing

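RnpS1 kept its rise and its call in all 13 alternatives, with a log2 fold change from 0.21 to 0.25 over the 7 that kept all libraries (adjusted p 0.00095 to 0.018) and from 0.20 to 0.30 with 1 library left out. The other 5 EJC genes were called in none of them. The replicate numbers did not pair the libraries (correlations of deviations -0.067, -0.033 and -0.074). With the replicate block, 596 genes were called higher and 556 lower, against 592 and 603, and RnpS1 had 0.25 (adjusted p = 0.0067 in edgeR's quasi-likelihood test), with no other EJC gene called. Without Hakai KD replicate 1, btz moved to 0.012, and its values with 1 library left out ran from -0.073 to 0.012.

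With library size alone, 374 genes were called higher and 922 lower, the EJC partners and THO genes gave 0 higher and 1 lower (tho2, -0.12), and these log2 fold changes turned negative: Bin1 -0.0068, Hel25E -0.014, thoc7 -0.034, tex -0.0045, rl -0.032 and lt -0.012. All genes tested then had a median log2 fold change of -0.035. The EJC genes had -0.073 (mago), -0.080 (tsu), -0.107 (eIF4A3, edgeR adjusted p = 0.062), -0.070 (btz), -0.063 (Acn) and 0.21 (RnpS1) in this setting. The TMM factors that it leaves out were 1.005 to 1.025 for control KD and 0.984 to 0.990 for Hakai KD. With DESeq2, 415 genes were called higher, 395 lower and 0 partners or THO genes higher. Without a filter on low counts, thoc7 was at -0.0037 and rl at -0.0025. With 1 library left out, the calls ranged from 328 to 521 higher and 380 to 509 lower over all genes and from 0 to 1 higher among partners and THO genes. In those fits, signs turned for Bin1 (-0.011 to 0.068), sbr (-0.041 to 0.0018), Nxt1 (-0.073 to 0.017), thoc7 (-0.018 to 0.032), tex (-0.028 to 0.11) and rl (-0.029 to 0.023), none of which was called. The cause of these moves was not tested.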
